A study of Mus musculus with 8 samples.

Results

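Transcripts of 50 genes for splicing factors and heterogeneous nuclear ribonucleoproteins were compared between haematopoietic stem and progenitor cells of 4 Jak2V617F heterozygous mice and 4 wild type mice. The genes were chosen by symbol, as those beginning with Srsf, Sf3a, Sf3b, U2af, Snrp or Hnrnp, together with Zrsr2. They are 50 of 57 protein-coding symbols of these families in the RefSeq gene table and 50 of the 18193 genes with a singly named probe set. Zrsr2 and Srsf7 had no entry in the probe annotation used and are not analysed here. Snrpa, Snrpd1, Snrpd2, Hnrnpa3 and Hnrnpa1l2-ps2 were named only together with other genes and were left out of the comparison. Each gene was represented by its probe set with the highest mean over the 8 arrays, out of 142 probe sets for the 50 genes, and 35 genes had more than 1.

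The cells were LSK cells, the lineage-low, Sca1-positive, cKit-high fraction of bone marrow that holds stem and multipotent progenitor cells, sorted by flow cytometry from C57BL/6 mice. The mutant mice carried Jak2V617F, the activated form of a cytokine receptor kinase that occurs in human myeloproliferative neoplasms, on 1 of 2 alleles, and the wild type mice carried none. The study's title places the mutant kinase at a physiological level of expression. The age of the mice and the way the allele was switched on are not given in the sources used here.

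Splicing removes introns from nuclear RNA. The U1 snRNP marks the 5' splice site, U2af1 and U2af2 read the 3' splice site, and the U2 snRNP, with its Sf3a and Sf3b proteins, binds the branch point. SR proteins bind exons and favour their use, whereas hnRNPs coat nascent RNA and often repress exons, and SRSF2, SF3B1, U2AF1 and ZRSR2 are recurrently mutated in human myeloid neoplasms.

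All values are deposited log2 intensities, and all differences are mutant minus wild type on that scale. Array medians lay between 7.06 and 7.15, and pairwise correlations between arrays lay between 0.991 and 0.995. The number of arrays limits the precision. Kit, the receptor used in the sort, averaged 12.67 ± 0.10 in mutant and 12.65 ± 0.14 in wild type arrays (SD, n = 4 each), and 6 of the 7 LSK markers were measured. None of the 6 was called, but Mecom, a stem cell transcription factor, was lower in every mutant array, at 12.43 ± 0.15 in mutant and 12.78 ± 0.11 in wild type arrays (SD, n = 4 each). Cd34 was also lower in every mutant array, with a difference of -0.12, and Slamf1, a stem cell surface marker, differed by 0.72 with overlap. Other cell types' markers were not equal between the genotypes. The mean log2 level of 12 macrophage and dendritic markers was 9.66 to 10.17 in mutant arrays and 9.05 to 9.57 in wild type arrays, with 12 of 12 above 0 in difference. That of 6 erythroid markers was 7.86 to 9.34 in mutant arrays and 6.91 to 7.95 in wild type arrays, with 6 of 6 above 0 in difference. That of 5 megakaryocyte markers was 9.40 to 10.06 in mutant arrays and 9.26 to 9.68 in wild type arrays, with 5 of 5 above 0, and that of 5 T cell markers was 6.62 to 7.08 in mutant arrays and 6.62 to 6.85 in wild type arrays, with 4 of 5 above 0. That of 8 granulocyte markers was 12.90 to 13.53 in mutant arrays and 12.34 to 13.11 in wild type arrays, with 7 of 8 above 0. B cell markers read 8.10 to 8.24 in mutant and 8.0 to 8.20 in wild type arrays, with 3 of 5 above 0. Proliferation markers read 12.45 to 12.85 in mutant and 12.46 to 12.70 in wild type arrays, with 8 of 9 above 0. These ranges overlapped between genotypes, as did those of the erythroid, megakaryocyte, T cell and granulocyte markers. The 18S ribosomal RNA control read 12.36 to 13.11 in mutant arrays and 13.15 to 13.71 in wild type arrays, without overlap, while the difference between the 3' and 5' probe sets of Gapdh was 0.56 to 0.77 in mutant and 0.68 to 0.73 in wild type arrays. By Xist and Y-linked transcripts, 1 of 4 mutant mice and 2 of 4 wild type mice were female. The part of these differences in the results that follow was not tested.

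None of the 50 genes was called different between mutant and wild type LSK cells. With limma, 0 of 50 passed an adjusted p of 0.05 over all genes, against 0.165% of all genes, 19 of them higher and 11 lower in the mutant. The smallest adjusted p among the 50 was 0.320, that of Sf3a3. At an unadjusted limma p under 0.05 the count was also 0 of 50, against 17.2% of all genes and 10.6% of the 3365 genes with a mean above 12, a level chosen after the values were seen because 42 of the 50 lie above it. That count of 0 depended on how limma estimates the spread of a gene. With a spread estimate that follows the intensity, 8 of 50 (16%) had an unadjusted p under 0.05, against 17.2% of all genes and 20.1% of genes with a mean above 12, and 0 were called, with a smallest adjusted p of 0.253. The 8 were Hnrnpdl, Sf3a3, Sf3b5, Snrpc and Srsf2, all higher in the mutant, and Hnrnpu, Snrpe and Srsf1, all lower.

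The differences were small. They ran from -0.21 for Srsf12 to 0.28 for Hnrnpl, and their median was -0.01, against 0.05 over all genes and -0.0039 over genes with a mean above 12. The 95% confidence interval lay within 2-fold in either direction for 50 of 50 genes, against 96.2% of all genes, and within 1.5-fold for 48 of 50, against 84% of all genes and 97.4% of those with a mean above 12. Below 0 were 31 of the 50 genes, against 37.4% of all genes and 51.1% of those with a mean above 12. Centring each array on its median turned this split round: 18 of 50 were then below 0, with a median of 0.03 against 0.10 over all genes. In these bulk samples fewer cells of a type and less RNA per cell cannot be told apart, and the probe sets measure transcript level, not which exons were joined.

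**Figure D1:**
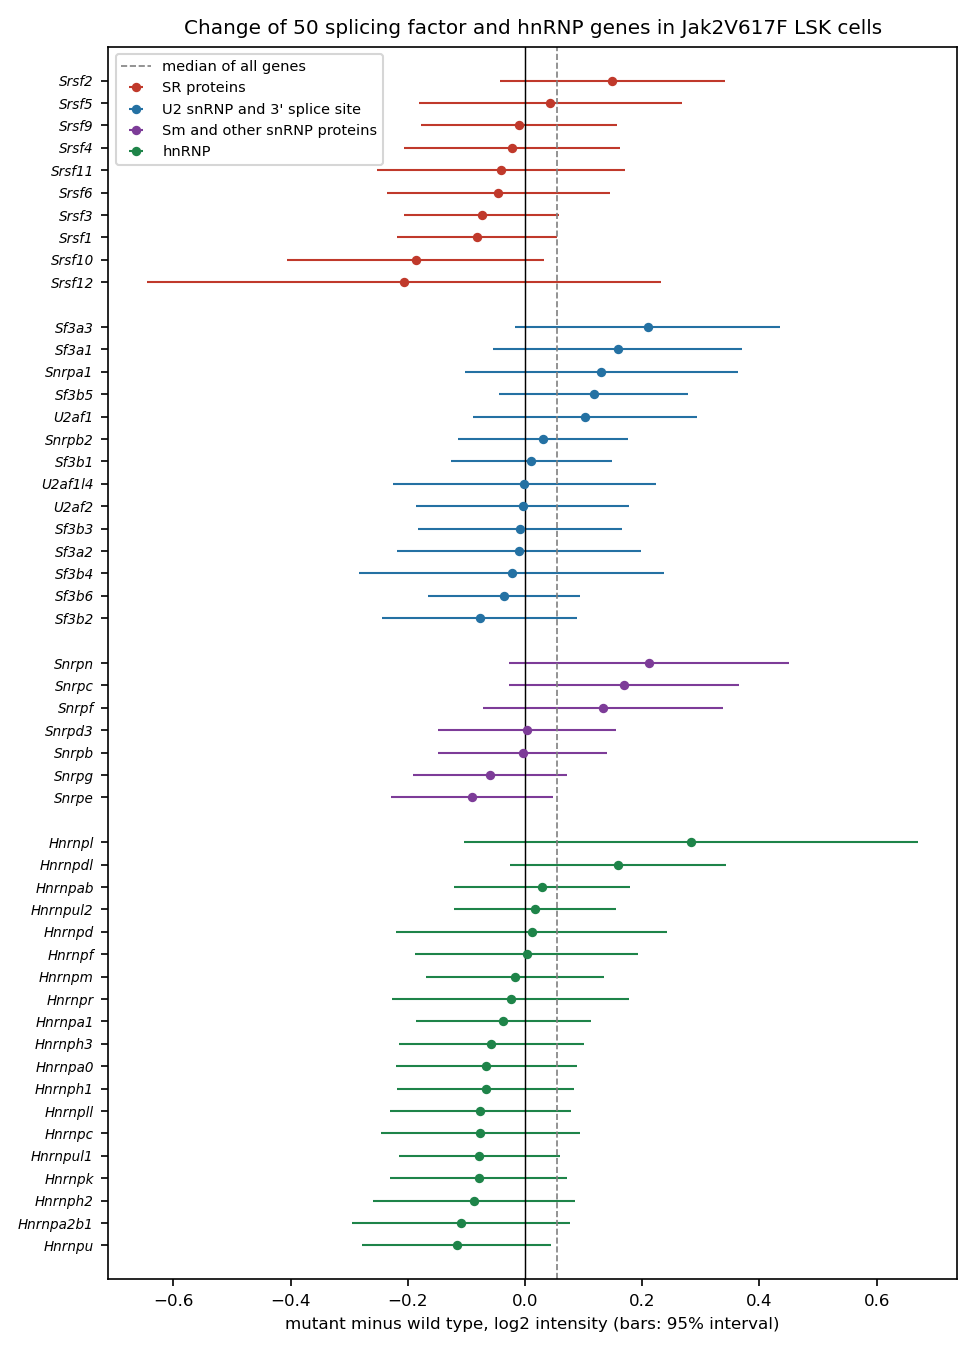
Difference in log2 intensity (mutant minus wild type, x axis) of the 50 genes by role, as limma estimates with 95% confidence intervals from 4 mutant and 4 wild type arrays. The dashed line marks the median of all 18193 genes, 0.05, and the estimates run from -0.21 (Srsf12) to 0.28 (Hnrnpl).

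**Figure D2:**
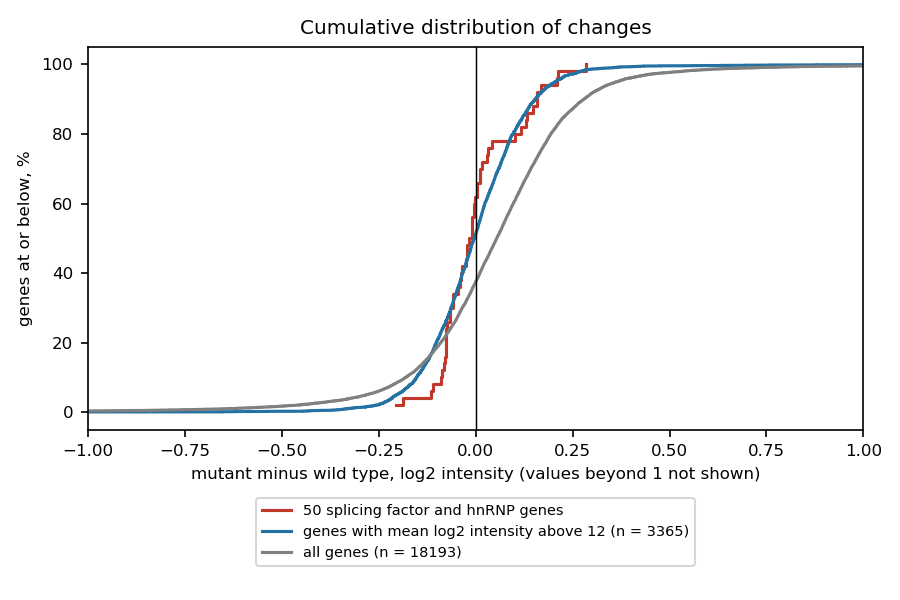
Cumulative share (y axis) of the difference in log2 intensity, mutant minus wild type (x axis), for the 50 splicing factor and hnRNP genes, the 3365 genes with a mean above 12 and all 18193 genes. The medians are -0.01, -0.0039 and 0.05 in this order.

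Promoter windows were read for the genes the description turns on. RefSeq windows of build GRCm38.p6, each from 250 bases before to 50 bases after a transcription start, were available for 44 of the 50 genes, in 61 windows. Letters of known factors, chosen after the data were seen, were searched on both strands. For ETS factors they were CCGGAAG, and for the Stat factors that Jak2 phosphorylates TTCNNNGAA. Sp1 was searched as GGGCGG, and the factor NF-Y was searched as CCAAT. The E-box, which Myc binds, was searched as CACGTG, and the TATA box was searched as TATAAA. Capitals mark every match, and adjoining capitals are matches that touch or overlap. Srsf2, Sf3b1 and U2af1 are shown because their human counterparts are mutated in myeloid neoplasms, Sf3a3 for its smallest p, and Srsf1, Srsf3, Hnrnpul1, Snrpe and Snrpg because their genotypes did not overlap. All are written 5' to 3' on the strand of the gene.
Srsf2, chr11:116853045-116853344, minus strand: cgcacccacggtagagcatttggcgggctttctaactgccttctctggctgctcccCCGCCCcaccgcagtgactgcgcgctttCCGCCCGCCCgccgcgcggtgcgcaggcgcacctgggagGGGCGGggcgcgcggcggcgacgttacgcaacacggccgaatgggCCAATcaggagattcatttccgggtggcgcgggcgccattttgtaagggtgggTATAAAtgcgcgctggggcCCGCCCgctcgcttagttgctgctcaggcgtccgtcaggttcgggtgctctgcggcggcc
Sf3b1, chr1:55027429-55027728, minus strand: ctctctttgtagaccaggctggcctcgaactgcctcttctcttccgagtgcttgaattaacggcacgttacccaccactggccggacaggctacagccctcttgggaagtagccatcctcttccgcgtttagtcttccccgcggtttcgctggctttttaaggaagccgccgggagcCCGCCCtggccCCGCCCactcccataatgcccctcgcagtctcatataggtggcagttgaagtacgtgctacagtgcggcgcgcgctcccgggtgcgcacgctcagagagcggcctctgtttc
U2af1, chr17:31658705-31659004, minus strand: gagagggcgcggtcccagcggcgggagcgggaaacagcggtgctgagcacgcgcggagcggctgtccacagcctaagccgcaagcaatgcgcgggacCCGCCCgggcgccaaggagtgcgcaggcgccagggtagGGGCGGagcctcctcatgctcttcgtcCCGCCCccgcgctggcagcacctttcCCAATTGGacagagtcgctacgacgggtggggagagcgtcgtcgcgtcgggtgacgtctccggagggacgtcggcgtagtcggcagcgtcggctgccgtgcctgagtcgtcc
Sf3a3, chr4:124714611-124714910, plus strand: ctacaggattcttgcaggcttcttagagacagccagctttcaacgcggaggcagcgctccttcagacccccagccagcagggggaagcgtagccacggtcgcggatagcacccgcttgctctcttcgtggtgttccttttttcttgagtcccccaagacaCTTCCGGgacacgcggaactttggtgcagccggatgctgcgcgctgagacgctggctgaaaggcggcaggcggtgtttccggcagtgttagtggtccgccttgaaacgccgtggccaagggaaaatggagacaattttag
Srsf1, chr11:88047123-88047422, plus strand: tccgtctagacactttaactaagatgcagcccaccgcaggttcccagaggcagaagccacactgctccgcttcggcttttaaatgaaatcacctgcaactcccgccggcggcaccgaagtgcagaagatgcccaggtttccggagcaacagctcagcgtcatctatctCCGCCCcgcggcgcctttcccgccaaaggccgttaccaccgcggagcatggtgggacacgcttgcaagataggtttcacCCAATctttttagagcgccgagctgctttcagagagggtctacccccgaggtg
Srsf3, chr17:29032410-29032709, plus strand: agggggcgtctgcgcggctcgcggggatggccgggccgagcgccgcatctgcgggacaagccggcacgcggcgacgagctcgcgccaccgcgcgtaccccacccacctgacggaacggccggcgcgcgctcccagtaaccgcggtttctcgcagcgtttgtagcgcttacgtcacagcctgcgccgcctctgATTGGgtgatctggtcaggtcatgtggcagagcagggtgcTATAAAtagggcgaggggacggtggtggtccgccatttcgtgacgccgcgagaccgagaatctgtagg
Hnrnpul1, chr7:25754710-25755009, minus strand: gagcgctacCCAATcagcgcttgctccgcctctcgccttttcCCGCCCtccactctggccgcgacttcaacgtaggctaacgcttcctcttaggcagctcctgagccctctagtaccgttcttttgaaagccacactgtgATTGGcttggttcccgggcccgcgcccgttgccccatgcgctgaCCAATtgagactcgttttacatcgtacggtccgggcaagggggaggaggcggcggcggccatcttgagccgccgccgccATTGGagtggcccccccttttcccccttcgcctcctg
Snrpe, chr1:133610231-133610530, minus strand: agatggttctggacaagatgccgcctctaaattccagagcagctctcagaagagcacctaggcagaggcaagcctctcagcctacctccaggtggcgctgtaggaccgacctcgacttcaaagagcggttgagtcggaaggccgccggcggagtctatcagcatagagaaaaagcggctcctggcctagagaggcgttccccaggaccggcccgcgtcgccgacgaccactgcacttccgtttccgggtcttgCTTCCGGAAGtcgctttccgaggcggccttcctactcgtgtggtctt
Snrpg, chr6:86371290-86371589, plus strand: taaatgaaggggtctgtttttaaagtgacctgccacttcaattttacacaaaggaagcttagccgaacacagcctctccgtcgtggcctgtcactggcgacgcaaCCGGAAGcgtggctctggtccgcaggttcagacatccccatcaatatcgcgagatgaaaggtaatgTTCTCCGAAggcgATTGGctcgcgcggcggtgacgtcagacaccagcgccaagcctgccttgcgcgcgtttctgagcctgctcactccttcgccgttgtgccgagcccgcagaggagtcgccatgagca

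The Srsf2 window held a TATA box whose first base lay at -29 from the start, a CCAAT at -82 and 5 Sp1 matches. Sf3b1 held 2 Sp1 matches, and U2af1 held 3, with CCAAT on both strands overlapping. Sf3a3 held an ETS match at -90, Snrpe held overlapping ETS matches on both strands just after the start, and Snrpg held an ETS match and the only Stat match of the 9 windows. Of the other genes without overlap, Srsf1 held an Sp1 match at -82 and a CCAAT match, Srsf3 a TATA box and a CCAAT match, and Hnrnpul1 4 CCAAT matches and 1 Sp1 match. Over the genes, CCGGAAG was found in 15 of 44 (34.1%), against 15% of all 14369 measured genes with a window. By role it was in 7 of 11 U2 and 3' splice site genes, 3 of 6 Sm and other snRNP genes, 3 of 10 SR genes and 2 of 17 hnRNP genes. TTCNNNGAA was in 5 of 44 (11.4% against 8.57% of all genes), GGGCGG in 30 (68.2% against 57.5%), CCAAT in 23 (52.3% against 42.0%), CACGTG in 4 (9.09% against 10.3%) and TATAAA in 6 (13.6% against 11.5%). GGGCGG was in 9 of 10 SR genes and 1 of 6 Sm and other snRNP genes. The windows also differed in composition, with a median of 25 CpG and 61.0% GC, against 16 and 58.3% in all windows. The 15 genes with CCGGAAG had a median difference of -0.0086 between genotypes, 8 below 0, and the 29 without had -0.04, 19 below 0. These are counts of letters and were not tested.

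The SR proteins, which bind exonic enhancers, showed 8 of 10 genes below 0 and a median difference of -0.04, and over the alternatives the median ran from -0.07 to 0.00098. With median centring 5 of 10 were below 0. Srsf2, the exonic enhancer factor also known as SC35, had log2 intensities of 14.11, 14.13, 13.96 and 14.05 in mutant arrays, against 13.95, 13.71, 13.98 and 14.00 in wild type arrays. Mutant array 3 lay among the wild type arrays, and wild type array 2 was the lowest of all 8. The difference was 0.15 ± 0.085 (SE; limma adjusted p = 0.388). Srsf1, also known as SF2 or ASF, was lower in every mutant array, at 14.31, 14.23, 14.32 and 14.33 in mutant and 14.34, 14.37, 14.42 and 14.39 in wild type arrays. The groups did not overlap, but the gap between the nearest arrays was small and the difference of -0.08 ± 0.061 (SE) had a limma adjusted p of 0.495. Srsf3, which also takes part in mRNA export, had the same pattern, with 14.04, 14.04, 14.05 and 14.01 in mutant and 14.06, 14.13, 14.13 and 14.11 in wild type arrays. Its difference was -0.07 ± 0.059 (SE; limma adjusted p = 0.526).

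Srsf10, which can repress splicing when dephosphorylated, read 12.28, 11.998, 12.14 and 12.13 in mutant arrays, against 12.14, 12.37, 12.51 and 12.28 in wild type arrays. The groups overlapped, with mutant array 1 above wild type arrays 1 and 4, and the difference was -0.19 ± 0.097 (SE; limma adjusted p = 0.350). On the next brightest probe set of Srsf10 the difference was 0.13, of opposite sign, and on the others it was -0.10 and -0.04. Over the alternatives the difference of Srsf10 ran from -0.25 to -0.05. Srsf12 read 4.05 to 4.33 in mutant and 3.85 to 4.76 in wild type arrays. Y-linked genes, which female mice lack, read 3.06 to 5.37 in the 3 female arrays, a level that differs by probe set, so whether Srsf12 transcript was present is not known from these values. The other SR genes, Srsf4, Srsf5, Srsf6, Srsf9 and Srsf11, had differences between -0.05 and 0.04.

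**Figure D3:**
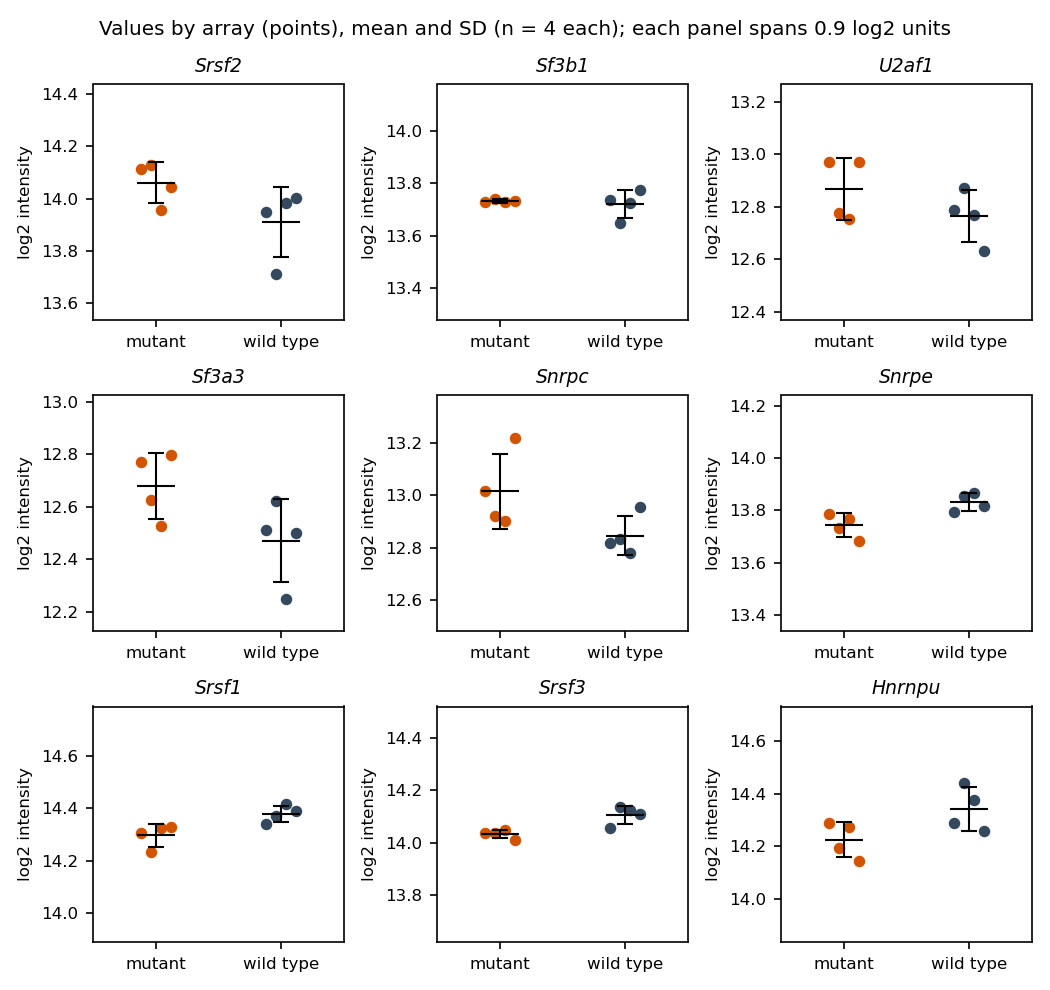
Log2 intensity (y axis) of 9 genes in each array, mutant arrays left and wild type arrays right; points are arrays, and the black marks are the group mean with its SD (n = 4). The groups do not overlap for Srsf1, Srsf3 and Snrpe, whereas Sf3b1 lies between 13.73 and 13.74 in mutant and between 13.65 and 13.78 in wild type arrays.

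Among the 14 genes of the U2 snRNP and of 3' splice site recognition, 7 lay above and 7 below 0, with a median of 0.0050, and no gene separated the genotypes. With median centring 13 of 14 lay above 0, with a median of 0.05 against 0.10 over all genes. Sf3b1, which encodes the Sf3b subunit that clasps the branch point, read 13.73, 13.74, 13.73 and 13.73 in mutant arrays, against 13.74, 13.65, 13.73 and 13.78 in wild type arrays. The mutant arrays lay inside the wild type range, and the difference was 0.01 ± 0.060 (SE; 95% confidence interval from -0.13 to 0.15; limma adjusted p = 0.941). U2af1, which reads the AG of the 3' splice site, had 12.97, 12.78, 12.75 and 12.97 in mutant and 12.79, 12.87, 12.77 and 12.63 in wild type arrays. Mutant arrays 1 and 4 were above every wild type array and the other mutant arrays were not, and the difference was 0.10 ± 0.085 (SE; limma adjusted p = 0.542). Its partner U2af2, which binds the polypyrimidine tract, differed by -0.0042 ± 0.080 (SE), and the related U2af1l4 by less than 0.01 in size.

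Sf3a3, a subunit of the Sf3a trimer, had the smallest p of the 50 genes. It read 12.77, 12.63, 12.53 and 12.80 in mutant arrays, against 12.51, 12.62, 12.25 and 12.50 in wild type arrays. All mutant arrays but array 3 were above all wild type arrays, and the difference was 0.21 ± 0.10 (SE), or 1.16-fold (limma adjusted p = 0.320). Sf3a1, of the same trimer, read 11.88, 11.60, 11.67 and 11.85 in mutant and 11.56, 11.48, 11.56 and 11.76 in wild type arrays, a difference of 0.16 ± 0.094 (SE; limma adjusted p = 0.404). The groups overlapped through wild type array 4. The third subunit, Sf3a2, differed by -0.01 ± 0.092 (SE). Sf3b5, a small Sf3b subunit, differed by 0.12 ± 0.071 (SE; limma adjusted p = 0.415), with 13.83, 13.65, 13.67 and 13.81 in mutant and 13.67, 13.58, 13.58 and 13.67 in wild type arrays. Here mutant arrays 1 and 4 stood above the other 6 arrays. Sf3b6, which contacts the branch point adenosine, differed by -0.04 and Sf3b4 by -0.02, and both signs turned with median centring, to 0.0090 and 0.02. Snrpa1 and Snrpb2, the proteins that bind U2 snRNA, differed by 0.13 ± 0.10 and 0.03 ± 0.064 (SE).

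Sm proteins form the ring around spliceosomal snRNAs. Of the 7 Sm and other snRNP genes, 4 were above 0 and 3 below, with a median of 0.0037, and 2 were below with median centring. Snrpe, an Sm ring protein, read 13.79, 13.73, 13.77 and 13.68 in mutant arrays, against 13.79, 13.86, 13.87 and 13.82 in wild type arrays. Every mutant array was lower than every wild type array, although mutant array 1 and wild type array 1 are equal at 2 decimals, and the difference was -0.09 ± 0.061 (SE; limma adjusted p = 0.455). Snrpg, of the same ring, read 14.69, 14.64, 14.69 and 14.67 in mutant and 14.73, 14.77, 14.75 and 14.71 in wild type arrays. Its groups did not overlap either, and the difference was -0.06 ± 0.058 (SE; limma adjusted p = 0.605). On the other probe set of Snrpg the groups overlapped and the difference was 0.085, so its sign depended on the probe set. Snrpf, a ring partner of Snrpe and Snrpg, differed by 0.13 ± 0.091 (SE; limma adjusted p = 0.461), opposite in sign to their chosen probe sets. It read 13.83, 13.70, 13.67 and 13.97 in mutant and 13.71, 13.50, 13.69 and 13.74 in wild type arrays. Those groups overlapped.

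Snrpc, the U1 protein that helps to recognise the 5' splice site, read 13.02, 12.92, 12.90 and 13.22 in mutant arrays, against 12.82, 12.83, 12.78 and 12.95 in wild type arrays. Mutant arrays 2 and 3 lay below wild type array 4, and the difference was 0.17 ± 0.087 (SE; limma adjusted p = 0.349). Snrpb and Snrpd3, also of the Sm ring, differed by -0.0040 ± 0.064 and 0.0037 ± 0.067 (SE). Snrpn, an imprinted Sm gene best known from neurons, read 5.48 to 5.90 in mutant and 5.37 to 5.68 in wild type arrays on its singly named probe set, with a difference of 0.21 ± 0.11 (SE; limma adjusted p = 0.337). A further 6 probe sets name Snrpn together with Snurf, with means from 3.56 to 8.52 in mutant and from 3.62 to 8.43 in wild type arrays. The 18 probe sets named for a family gene together with another gene differed by -0.20 to 0.14, and 0 of them were called or separated the genotypes. Of all probe sets 0.244% were called, and 5.52% were higher and 4.66% lower without overlap, so few would be looked for among 18.

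Among the 19 hnRNP genes, 13 were below 0, with a median difference of -0.06, and 10 were below 0 with median centring. Over the alternatives the median ran from -0.09 to -0.01. Hnrnpu, a large RNA and chromatin binding scaffold, read 14.29, 14.19, 14.27 and 14.14 in mutant arrays, against 14.29, 14.44, 14.38 and 14.26 in wild type arrays. Wild type arrays 2 and 3 were the highest of the 8 and the other arrays overlapped, with a difference of -0.12 ± 0.071 (SE; limma adjusted p = 0.416). Hnrnpk, a poly(C) binding protein, read 14.19, 14.20, 14.20 and 14.07 in mutant and 14.17, 14.31, 14.28 and 14.22 in wild type arrays, a difference of -0.08 ± 0.067 (SE; limma adjusted p = 0.549). Here wild type array 1 lay among the mutant arrays. On the chosen probe sets Hnrnpul1, a relative of Hnrnpu, was the only hnRNP gene whose groups did not overlap. It read 12.25, 12.25, 12.19 and 12.19 in mutant and 12.26, 12.32, 12.35 and 12.27 in wild type arrays. Its difference was -0.08 ± 0.061 (SE; limma adjusted p = 0.520).

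Hnrnpdl, a relative of the AU-rich element binding protein Hnrnpd, read 13.34, 13.15, 13.19 and 13.35 in mutant arrays, against 12.97, 13.22, 13.12 and 13.09 in wild type arrays. Wild type array 2 exceeded mutant arrays 2 and 3, and the difference was 0.16 ± 0.082 (SE; limma adjusted p = 0.348). Hnrnpl, which binds CA repeats, had the largest difference of the 50 genes and a wide spread, at 12.03, 11.39, 11.48 and 11.64 in mutant and 11.42, 10.94, 11.55 and 11.50 in wild type arrays. Mutant array 1 was the highest and wild type array 2 the lowest of the 8, the other 6 overlapped, and the difference was 0.28 ± 0.17 (SE; limma adjusted p = 0.411). Hnrnpll, its relative that regulates exons of the lymphocyte surface gene Ptprc, differed by -0.08 ± 0.068 (SE). Hnrnpa1 and Hnrnpa2b1, which repress exons, differed by -0.04 ± 0.066 and -0.11 ± 0.082 (SE), and Hnrnpc, which binds uridine tracts, by -0.08 ± 0.075 (SE). The remaining 10 hnRNP genes had differences between -0.09 and 0.03.

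The mutant and wild type arrays did not overlap for 5 of 50 genes, all lower in the mutant: Hnrnpul1, Snrpe, Snrpg, Srsf1 and Srsf3. These are 10% of the 50, against 3.33% of all genes and 6.21% of genes with a mean above 12. None was higher without overlap, against 6.82% of all genes and 4.43% of those with a mean above 12. After median centring 0 were lower without overlap, against 1.85% of all genes, and 1, Srsf2, was higher, against 10.1% of all genes. Without wild type array 4, the array whose omission left most genes without overlap, 7 were lower and 2 higher, against 5.06% and 10.9% of all genes. With the mean of a gene's probe sets 2 were lower, Hnrnpul1 and Snrpe, and 1 was higher, Srsf2, against 3.48% and 6.95% of all genes. For these alternatives the shares of genes with a mean above 12, where most of the 50 lie, are not given here.

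**Figure D4:**
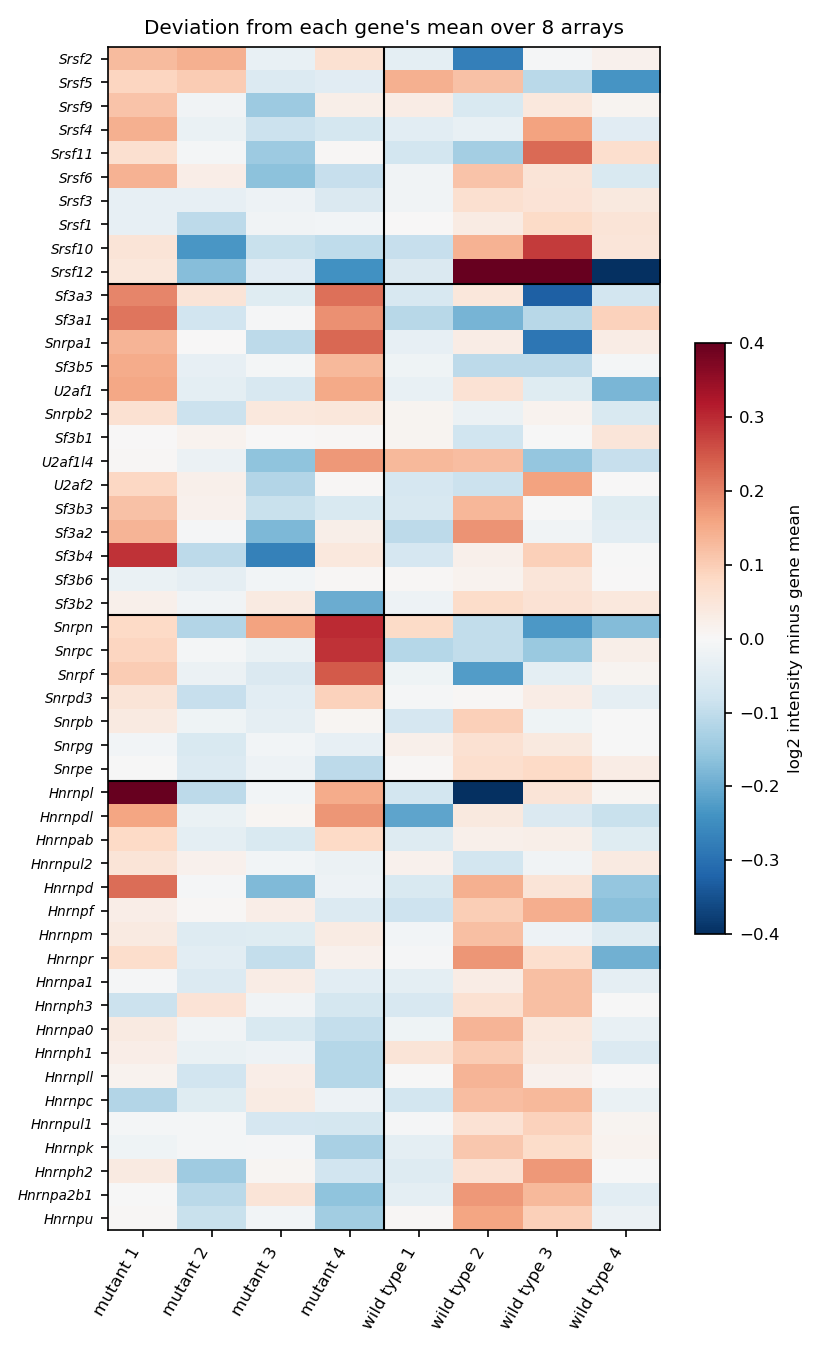
Deviation of log2 intensity from the mean of each gene over the 8 arrays (colour), for the 50 genes by role (rows) in mutant arrays (left) and wild type arrays (right). Colours are limited to 0.4 in either direction, which Srsf12 and Hnrnpl exceed; wild type arrays 2 and 3 hold the highest value of 15 and 13 genes.

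No genotype held the highest or lowest values throughout. Wild type arrays 2 and 3 held the highest value for 15 and 13 genes, mutant arrays 1 and 4 for 10 and 9, and mutant array 3 for 0, which held the lowest value for 11. The arrays ranked differently by role. The median deviation of the hnRNP genes from their own means was 0.03, -0.04, -0.01 and -0.05 in mutant arrays, against -0.04, 0.10, 0.07 and -0.03 in wild type arrays, so that wild type arrays 2 and 3 were high. For the U2 and 3' splice site genes it was 0.13, -0.02, -0.06 and 0.04 in mutant arrays, against -0.03, 0.02, -0.0079 and -0.0045 in wild type arrays, so that mutant array 1 was high. In both roles the genotypes overlapped.

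Probe sets of the same gene were compared next. Over all 142 probe sets 0 were called, against 0.244% of all probe sets, and 3 had an unadjusted limma p under 0.05 (2.1%, against 17.2% of all probe sets). Of the 35 genes with more than 1 probe set, 21 had probe sets with differences of opposite sign. The range within a gene had a median of 0.157 and reached 0.549 for Hnrnpr. Srsf2 had 4 probe sets, and on the one with the largest difference the log2 intensities were 12.29, 12.15, 11.80 and 12.38 in mutant arrays, against 11.86, 11.55, 11.66 and 11.77 in wild type arrays. Mutant array 3 again lay among the wild type arrays, and the difference of 0.45 ± 0.13 (SE) had a limma adjusted p of 0.160 over all probe sets. The other 3 probe sets of Srsf2 differed by 0.15, by less than 0.01 in size and by 0.16. Sf3b1 had 4 probe sets too, and the 3 that were not chosen differed by -0.16, -0.21 and -0.13, so that the mean of its probe sets was -0.12, opposite in sign to the chosen one. A dim probe set of Srsf1 read 6.17, 6.18, 6.39 and 6.11 in mutant arrays, against 5.96, 5.87, 5.93 and 5.90 in wild type arrays. It was higher in every mutant array, by 0.30 ± 0.083 (SE; limma adjusted p = 0.142), opposite to the chosen probe set of the gene. The 5 probe sets of Hnrnpu ran from -0.29 to 0.10. Over all probe sets, 3 were higher without overlap (2.1%, against 5.52% of all probe sets) and 7 lower (4.93%, against 4.66%). Those higher were the dim probe set of Srsf1 and probe sets of Hnrnpf, not the chosen one, that differed by 0.12 and 0.16. Those lower included probe sets of Hnrnpa2b1 (-0.10) and Srsf11 (-0.14) that were not chosen.

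**Figure D5:**
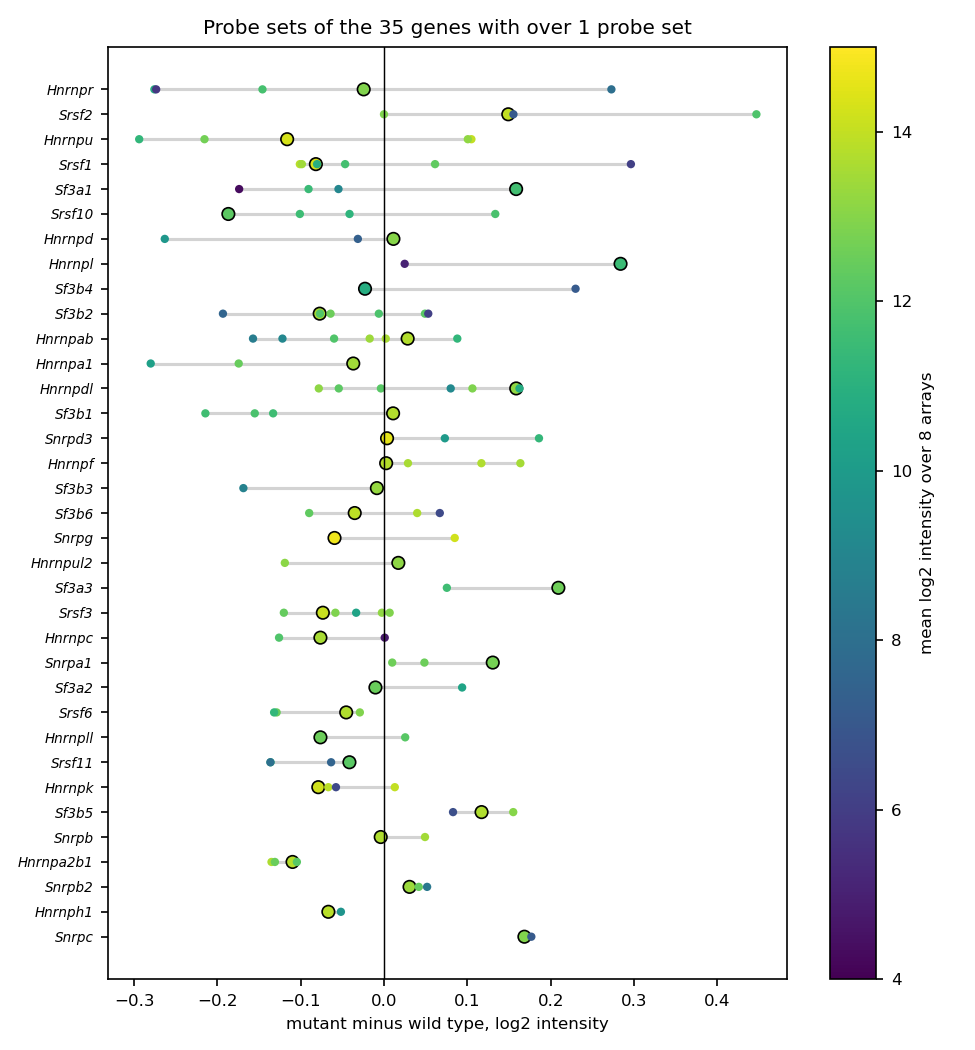
Difference in log2 intensity, mutant minus wild type (x axis), of every probe set of the 35 genes with more than 1 (rows); colour gives the mean log2 intensity and a black outline the chosen probe set. Differences of opposite sign occur within 21 of the 35 genes, and the widest range is 0.549 for Hnrnpr.

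Other splicing genes were read from lists of the tri-snRNP and catalytic core, helicases, LSm proteins, SR protein kinases, exon junction proteins, other RNA binding regulators, snRNP assembly and nonsense-mediated decay. Of 158 genes 144 were measured. None was called (limma, adjusted over all genes, smallest adjusted p 0.162), 72 lay above 0 and 72 below, and the median was 0.0016. With median centring 94 lay above 0 and 50 below, with a median of 0.05 against 0.10 over all genes. At an unadjusted limma p under 0.05, 11 were higher and 4 lower, together 10.4%. The share was 17.2% of all genes and 10.6% of genes with a mean above 12, where 95 of the 144 lie. Without overlap, 7 were higher and 6 lower (4.17%). The shares of all genes were 6.82% higher and 3.33% lower, and of genes with a mean above 12 they were 4.43% and 6.21%. Luc7l, a U1-associated factor, read 12.26, 12.27, 12.22 and 12.22 in mutant arrays, against 12.48, 12.38, 12.76 and 12.72 in wild type arrays. Every mutant array was lower than every wild type array, with a difference of -0.34 ± 0.094 (SE; limma adjusted p = 0.162). Prpf31, which holds the tri-snRNP together, read 12.50, 12.32, 12.26 and 12.69 in mutant arrays, against 12.13, 12.20, 11.98 and 12.09 in wild type arrays. Every mutant array was higher than every wild type array, with a difference of 0.35 ± 0.10 (SE; limma adjusted p = 0.187). The helicase gene Dhx38 was also higher without overlap (0.30 ± 0.092, SE; limma adjusted p = 0.188), and the SR protein kinase gene Prpf4b was lower without overlap (-0.18 ± 0.072, SE; limma adjusted p = 0.260).

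By list, the tri-snRNP and catalytic core had 30 of 49 genes above 0 (median 0.05) and the SR protein kinases 6 of 9 below 0 (median -0.09; 5 of 9 with median centring). Clk2, of the kinases, differed by -0.17 ± 0.080 (SE), with a limma adjusted p of 0.315. The other RNA binding regulators had 21 of 32 below 0 (median -0.05), a split that was 15 above and 17 below with median centring. Of these, Nova1 had the smallest p and was higher, by 0.22 ± 0.072 (SE), with a limma adjusted p of 0.205. The exon regulator Rbfox2, with the next smallest, was lower (-0.33 ± 0.12, SE; limma adjusted p = 0.231). The median of the helicases was -0.000075, that of LSm proteins 0.05, with Lsm4 at 0.18 and Lsm7 at 0.16, and that of exon junction and SR-related proteins -0.0092, with Son and Srrm2 both at -0.16. That of snRNP assembly genes was 0.0090, with Smn1, the survival motor neuron gene, at 0.26 ± 0.093 (SE; limma adjusted p = 0.226). Gemin8, of the same list, differed by 0.22 ± 0.093 (SE), with a limma adjusted p of 0.279. The median of nonsense-mediated decay genes was 0.02, with Smg9 at 0.28 and Upf2 at -0.18. Ddx41, a helicase gene mutated in human myeloid neoplasms, differed by 0.19 ± 0.097 (SE; limma adjusted p = 0.352). Beside these list medians, the median over all genes was 0.05 and that over genes with a mean above 12 was -0.0039.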

How the data were processed

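Total RNA of sorted LSK cells was extracted, linearly amplified, biotin-labelled and hybridised to 8 Affymetrix mouse expression arrays, 1 per mouse, per the labels' protocols. The authors deposited log2 intensities; the submitters' processing notes name RMA, the affy package and R 2.11.0. That the scale is log2 follows from the values. The chip definition, any filter and the genome build are not given in the sources used here. Because RMA gives every array the same distribution, a change common to most transcripts cannot be detected. Scan dates and scanner files were not used here, so batches could not be looked for.

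Of 45101 probe sets 64 were controls. The platform annotation gave 1 symbol for 34945 probe sets, several for 932 and none for 9160, and 34741 were matched by Entrez identifier to RefSeq genes of GRCm38.p6, with 0 symbols changed. Differences were fitted over all 18193 genes in R 4.3.3 with limma 3.58.1 (lmFit, eBayes), two-sided and without covariates. P-values were adjusted by Benjamini-Hochberg over the whole table, and 0.05 was the threshold. Scripts were tested on simulated data. Errors are SDs between arrays, or SEs where a limma difference is given. The labels describe separate mice of each genotype.

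The genes, their roles and the lists of other genes were chosen with earlier results of these data known. Genes chosen for naming were Srsf2, Sf3b1 and U2af1, and the 12 genes of the family with the smallest limma p. The 2 with the highest and the 1 with the lowest mean in each role were added, and up to 2 genes with the smallest p in each list. Not all of them are given with the value of each array. Other genes, among them Hnrnpul1 and the probe sets that were not chosen, were named with their values known. The fit was repeated with a block for replicate number, with each array centred on its median, without genes whose mean was under 7.11, with probe sets averaged per gene, without probe sets shared between transcripts or genes (names in _s_at, _x_at or _a_at), over every probe set, with a robust prior that follows intensity, with array weights, with sex in the model, without each array in turn and at other thresholds.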

Additional observations from a re-analysis of the deposited data

Results flagged for a closer look

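In 4 of 100 groups of 4 arrays (50 genes in each genotype), 1 array lay far from the other 3 by Dixon's criterion, and chance alone gives about 1 in 20 groups. Hnrnpk read 14.07 in mutant array 4, below the 14.19 to 14.20 of the other mutant arrays. Snrpb2 read 13.25 in mutant array 2, below the 13.38 to 13.40 of the other mutant arrays. Hnrnpll read 12.68 in wild type array 2, above the 12.54 to 12.56 of the other wild type arrays. Srsf4 read 12.30 in wild type array 3, above the 12.09 to 12.11 of the other wild type arrays.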

How the results depend on the processing

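The count of called genes among the 50 was 0 under every alternative listed, thresholds of 0.1 and 0.01 included, and the median difference lay between -0.04 and 0.03. The number of genes called over all genes was 30. It was 8 with the replicate number as a block, 47 with median centring, 49 with the mean of probe sets, 75 with a robust prior that follows intensity, 60 with sex in the model, 110 over all probe sets, 199 at an adjusted p of 0.1 and 8 at 0.01, and 13 to 40 with each array left out. Same-numbered mice did not deviate together (r = 0.0036, -0.168, -0.0969 and 0.119 for numbers 1 to 4, with the best match its own only for number 4). No pairing by number was seen, but these correlations cannot exclude one. The block leaves every difference as it is, since each number has 1 mouse of each genotype. Genes whose genotypes did not overlap numbered 5, and 1 with median centring, 3 with the mean of probe sets, 2 of 44 without _s_at, _x_at and _a_at probe sets, 10 of 142 over all probe sets, and 5 to 9 with each array left out. The shares over all genes moved too, to 10.1% higher and 1.85% lower with median centring, and with an array left out to between 8.02% and 11.7% higher and between 3.76% and 5.88% lower. They were 6.95% higher and 3.48% lower with the mean of probe sets. Without _s_at, _x_at and _a_at probe sets they were 6.55% and 3.49%, and there Hnrnpf was higher and Hnrnpul1 lower. Over all probe sets they were 5.52% and 4.66%. Among other splicing genes 0 were called, and 1, Clns1a, with those shared probe sets left out (-0.73, with a limma adjusted p of 0.0441) and over all probe sets (limma adjusted p of 0.0429). Of the 50 genes, 31 were below 0, 18 with median centring and 22 to 35 with each array left out. Among the genes chosen for naming, signs turned for these, none of them called: with median centring Sf3b6 (0.0090) and Sf3b4 (0.021), with the mean of probe sets Sf3b1 (-0.12), Sf3a1 (-0.040), Snrpg (0.013) and Sf3b4 (0.10), without _s_at, _x_at and _a_at probe sets Hnrnpdl (-0.054), Hnrnpu (0.10), Hnrnpk (0.013), Snrpg (0.085) and Srsf1 (0.061), with array weights Sf3b4 (0.0049), and with sex in the model Snrpd3 (-0.0022). With each array left out, the difference of Snrpd3 ran from -0.0265 to 0.0354, that of Sf3b4 from -0.123 to 0.0634 and that of Sf3b1 from -0.0136, without wild type array 2, to 0.0288. The cause was not tested.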

Other observations

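Clns1a, which encodes a chaperone that delivers Sm proteins to the snRNP assembly complex, was the only gene of the splicing lists called on any probe set. On its brightest probe set it read 13.75 ± 0.06 in mutant and 13.78 ± 0.08 in wild type arrays (SD, n = 4 each), a difference of -0.04 ± 0.068 (SE; limma adjusted p = 0.797). On another probe set it differed by -0.73 (limma adjusted p = 0.0429 over all probe sets). This probe set was singled out after its values were seen.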
